A study of Mus musculus with 4 samples.

Results

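The 9 genes described here encode proneural and neuronal differentiation factors of the basic helix-loop-helix (bHLH) family: Neurog1, Neurog2, Neurog3, Neurod1, Neurod2, Neurod4, Neurod6, Atoh1 and Nhlh2. They were chosen by symbol, and 8 of them are among the 28250 genes with a deposited expression value, Neurod1 being the exception. All 9 have exons in the GENCODE M1 annotation of the mm9 genome, in which 37310 genes were counted. RNA-seq was performed on TBV2 cells, a feeder-dependent mouse embryonic stem cell (ESC) line, in the presence of LIF, the cytokine that holds ESCs undifferentiated. The 2 solvent libraries came from cells kept for 24 h with the vehicle, and the 2 MS-275 libraries from cells kept for 24 h with MS-275, an inhibitor of class I histone deacetylases, at 5 µM. Both groups shared the line and LIF, the labels name no altered gene, and polyadenylated RNA was sequenced. The line is a single ESC line, and the labels do not say whether the libraries of a group were separate cultures, so each p measures the spread between these libraries, which may be technical.

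Proneural bHLH proteins drive progenitors into the neuronal lineage. They bind the E-box, the DNA motif CANNTG, as heterodimers with the widely expressed E proteins. Id proteins tie up the E proteins, Hes and Hey proteins repress proneural genes downstream of Notch, and REST silences neuronal genes outside neurons. Neurog1 and Neurog2 select sensory and cortical neuron fates, Atoh1 those of cerebellar granule cells and inner ear hair cells, and Neurog3 the endocrine cells of pancreas and gut. Neurod1, Neurod2, Neurod4 and Neurod6 act later in differentiation, as does Nhlh2, which is known for its role in hypothalamic neurons. Undifferentiated ESCs are known to hold most of these genes silent or nearly so.

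The promoters of 4 members are shown first, since the results return to these genes. For each of them, both MS-275 libraries lay on the same side of both solvent libraries in exon counts. Without pairing of the libraries, none reached an adjusted p under 0.05 in the main tests given below. Each runs from 250 bases before to 50 bases after the start site in RefSeq (GRCm38), on the strand of the gene, and was placed on mm9 by an exact and single match. Capitals mark the E-boxes.
Neurod1, chr2:79296744-79297043, minus strand: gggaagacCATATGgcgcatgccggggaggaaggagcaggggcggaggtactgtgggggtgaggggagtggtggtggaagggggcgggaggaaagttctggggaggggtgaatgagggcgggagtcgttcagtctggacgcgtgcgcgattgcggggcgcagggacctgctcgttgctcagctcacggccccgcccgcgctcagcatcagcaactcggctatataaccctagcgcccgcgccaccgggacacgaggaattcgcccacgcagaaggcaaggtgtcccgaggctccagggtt
Neurog3, chr10:61595588-61595887, plus strand: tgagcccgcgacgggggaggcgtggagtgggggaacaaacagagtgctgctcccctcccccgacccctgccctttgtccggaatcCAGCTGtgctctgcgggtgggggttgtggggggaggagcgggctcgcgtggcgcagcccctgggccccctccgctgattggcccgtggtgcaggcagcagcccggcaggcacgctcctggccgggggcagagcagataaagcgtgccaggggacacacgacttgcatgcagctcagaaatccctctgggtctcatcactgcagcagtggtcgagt
Neurog1, chr13:56353492-56353791, minus strand: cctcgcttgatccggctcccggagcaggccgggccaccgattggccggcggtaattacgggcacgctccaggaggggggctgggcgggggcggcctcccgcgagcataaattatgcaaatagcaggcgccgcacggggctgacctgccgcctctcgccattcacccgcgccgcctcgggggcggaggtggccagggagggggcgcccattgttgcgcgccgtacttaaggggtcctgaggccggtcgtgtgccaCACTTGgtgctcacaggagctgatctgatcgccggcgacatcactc
Neurog2, chr3:127335804-127336103, plus strand: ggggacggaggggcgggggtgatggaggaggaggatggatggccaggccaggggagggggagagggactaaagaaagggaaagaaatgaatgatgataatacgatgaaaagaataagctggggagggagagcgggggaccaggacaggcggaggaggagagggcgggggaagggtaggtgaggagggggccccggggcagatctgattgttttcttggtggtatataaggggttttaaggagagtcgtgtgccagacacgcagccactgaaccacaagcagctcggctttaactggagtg
The Neurod1 promoter held 1 E-box, beginning at -242 from the start site, and that of Neurog3 held 1, of the form CAGCTG, at -165. In Neurog1 the only E-box began at 4, inside the RefSeq transcript but before the start of the GENCODE gene counted here. Neurog2 held 0. Of the 32851 RefSeq promoters of the same length, 72.3% held at least 1 E-box and 16.3% at least 1 of that form. Both motifs read the same on the 2 strands, and the form is itself an E-box. The 4 promoters differed more in CpG dinucleotides, with 32 in Neurog1, 26 in Neurod1, 19 in Neurog3 and 10 in Neurog2 against a median of 7 over all promoters. A motif match is a description of these letters and not a bound site.

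Expression was read in 2 ways from the same reads. The deposited value is a normalized signal per gene made by the authors with Genomatix, and the deposited alignments were counted as distinct positions, each chromosome, start and strand once, on the exons of a gene. Libraries are called old and new after the authors' own labels, and this naming matters because the files cross. The values of replicate 1 carry the header old, but the alignments labelled old were deposited with replicate 2. Values rebuilt from the alignments of the other replicate equalled the deposited value to its last digit for 5.33% to 6.01% of genes, against 0.0364% to 0.0731% with the alignments of the same replicate. The gene models behind the values are not given in the sources used here, and most values differed from the rebuilt ones in the last digit or more. Of the 20 member values above 0, 7 were rebuilt exactly from the other replicate and 0 from the same. The old libraries held 9785619 alignments with solvent and 10915650 with MS-275, all at distinct positions. The new libraries held 23467935 and 20008841, of which 53.2% and 54.4% repeated a position, leaving 10973569 and 9122347 distinct. A listed 0 does not always mean that reads were lacking, since the neuronal gene Map2 was listed at 0 in both solvent libraries, where its exons held 459 and 511 distinct positions.

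Levels between genes were compared per length, as the position density: distinct positions per kb of exon, scaled to 1000000 distinct positions in the library. With solvent, Neurod1 stood first at a density of 12.3 ± 7.71 (SD, n = 2) and Neurog3 second at 2.09 ± 0.141 (SD, n = 2), and the ranges of the 2 genes were apart. Of the protein-coding genes, 23.2% had a higher density than Neurod1 with solvent and 43.7% with MS-275. For Neurog3 the share with MS-275 was 62.0%. Atoh1 came next at 0.199 ± 0.212 (SD, n = 2). Below it Neurog2 (0.0614), Nhlh2 (0.0424) and Neurod4 (0.0409) had overlapping ranges, and Neurog1, Neurod2 and Neurod6 had 0 positions. With MS-275 the order began with Neurod1 at 4.56 ± 0.0335 (SD, n = 2) and Neurog3 at 1.03 ± 0.145 (SD, n = 2), again apart from each other. Atoh1 (0.307 to 0.893), Neurog2 (0.370 to 0.739) and Neurog1 (0.276 to 0.397) followed with ranges that overlapped from each to the next. Nhlh2 (0.161) and Neurod4 (0.118) lay lower, and Neurod2 and Neurod6 stayed at 0. In bulk RNA of this kind, fewer cells that express a gene and less RNA per cell cannot be told apart.

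**Figure D1:**
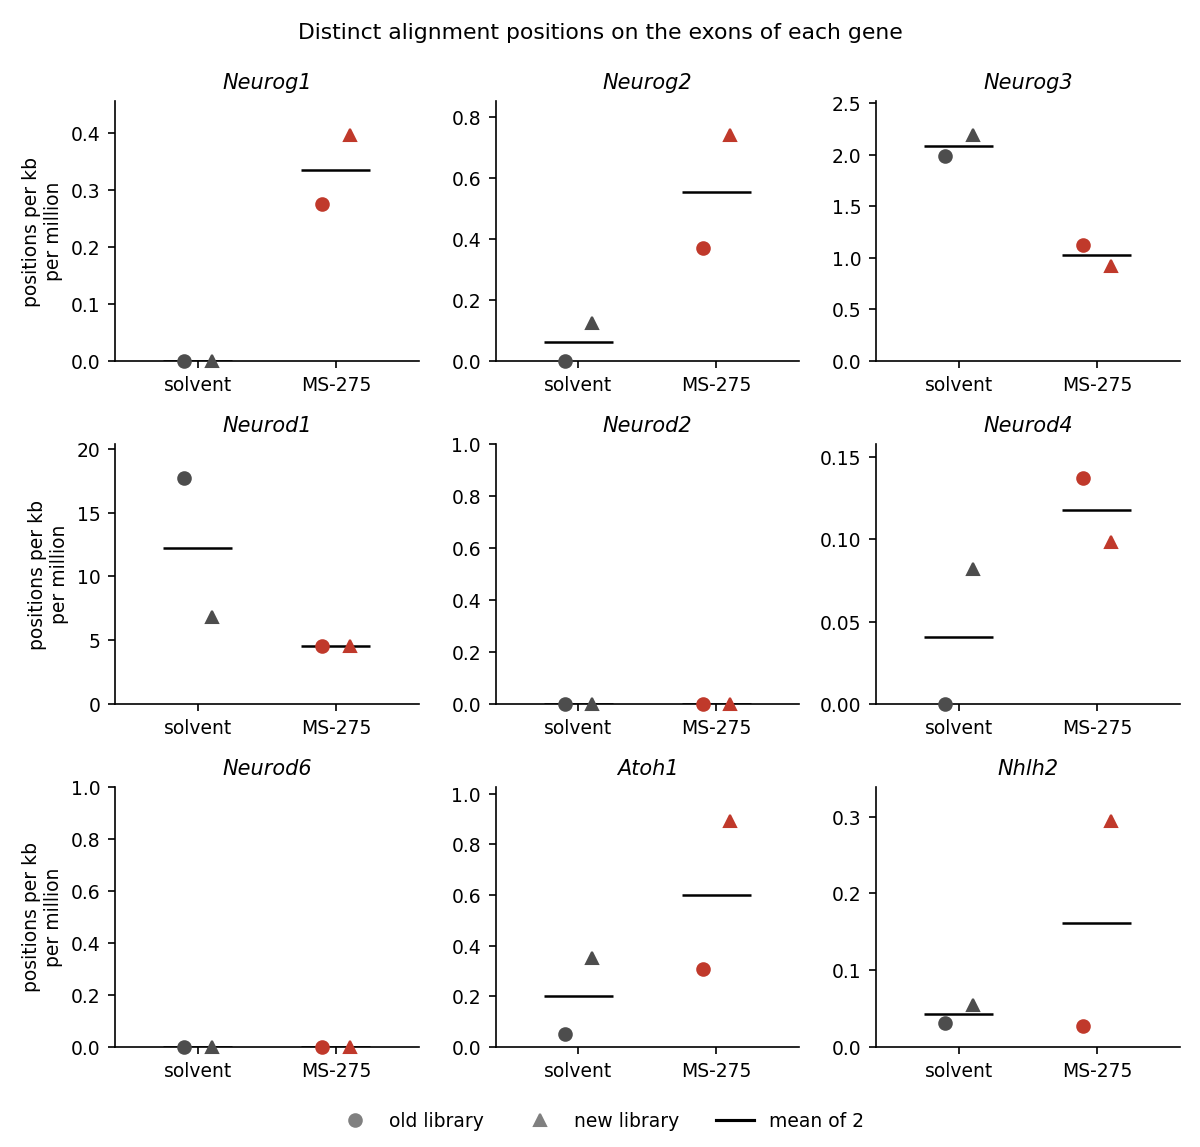
Position density, in distinct alignment positions per kb of exon scaled to 1000000 per library (linear y axes, 1 panel and scale per gene) for the 9 genes in the solvent and MS-275 libraries. Circles are the old and triangles the new libraries, and bars are the mean of 2. The 2 MS-275 points of Neurod1 and Neurog3 lie below both solvent points, those of Neurog1 and Neurog2 lie above them, and Neurod2 and Neurod6 are at 0 throughout.

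Neurod1 lies on the minus strand of chromosome 2 from 79292678 to 79296908 (mm9, ENSMUSG00000034701.8), with 2729 bases of exon. Its exons held 473 distinct positions in the old and 204 in the new solvent library, against 135 and 114 in the old and new MS-275 libraries. Both MS-275 libraries were lower than both solvent libraries, but the solvent libraries differed from each other by more than the MS-275 libraries did from the new solvent library. The density was 17.7 and 6.81 with solvent (old and new) and 4.53 and 4.58 with MS-275. In limma-voom the log2 fold change of MS-275 over solvent was -1.25 (standard error, SE, 0.455), with an adjusted p of 0.0954, so Neurod1 did not pass. With the old and new libraries as a replicate block, it passed as lower at -1.38 (SE 0.238, limma adjusted p = 6.19e-05). The size of the difference rested on the old solvent library: without it the log2 fold change was -0.58 (limma adjusted p = 0.481), and without the new solvent library -1.96 (limma adjusted p = 0.000114).

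Counted by read centre, the Neurod1 coding sequence held 123 and 55 positions with solvent (old and new) and 41 and 28 with MS-275. The 3′ UTR held 337 and 137 with solvent and 88 and 76 with MS-275. Both parts were lower in both MS-275 libraries than in either solvent library. The 5′ UTR held 11 and 10 with solvent and 6 and 9 with MS-275, its densities overlapped between the groups, and the interval of its ratio of 0.740 (95% exact interval 0.355 to 1.51, counting error only) includes 1. The intron held 47 and 20 with solvent and 7 and 3 with MS-275, a ratio of summed positions of 0.155 (95% exact interval 0.0709 to 0.302, counting error only). The first exon overlaps Cerkl, a gene read in the same direction, the second overlaps Gm17325 on the opposite strand, and the library protocol names no step that marks strand. On the 2374 exon bases that Neurod1 shares with no other gene, 438 and 185 positions with solvent stood against 122 and 102 with MS-275, a ratio of 0.373 (95% exact interval 0.318 to 0.435, counting error only). Exons of Cerkl outside Neurod1 held 78 and 84 positions with solvent and 100 and 72 with MS-275, so the groups overlapped there.

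**Figure D2:**
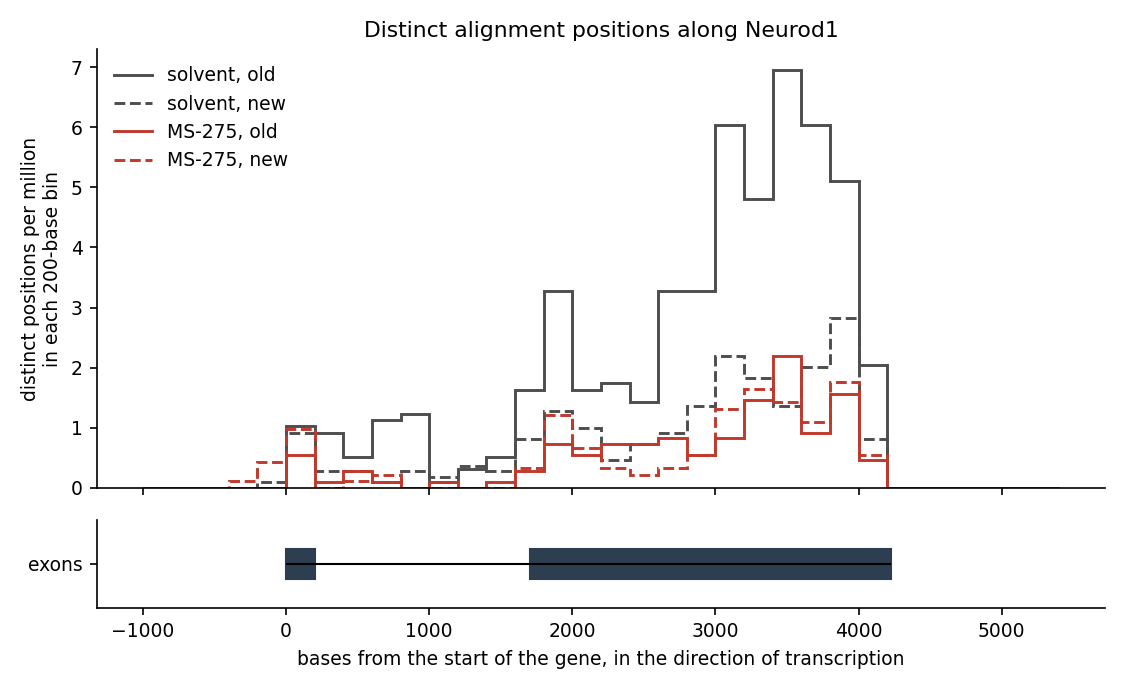
Distinct alignment positions, scaled to 1000000 per library, in 200-base bins along Neurod1 (upper panel, y from 0), by distance in bases from the start of the gene in the direction of transcription, with the exons drawn below. Grey lines are solvent and red lines MS-275, solid for old and dashed for new libraries. The old solvent library stands above the other 3 across the second exon, which holds most of the positions.

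Neurog3 lies on the plus strand of chromosome 10 from 61595838 to 61597511 (mm9, ENSMUSG00000044312.3). Its value was 0.01792 and 0.01134 with solvent (old and new) and 0.01071 and 0.00519 with MS-275. Both MS-275 values were below both solvent values, the old one with MS-275 by little. On log2(value + 0.005), a scale that understates the change of low genes, the log2 fold change was -0.61 (SE 0.537, limma adjusted p = 0.669). With the replicate block the adjusted p was 0.137. Its exons held 30 and 37 distinct positions with solvent and 19 and 13 with MS-275, so here too the groups did not overlap. The log2 fold change of the positions was -1.0 (SE 0.439, limma adjusted p = 0.156), and with the replicate block it passed as lower at an adjusted p of 0.0470.

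The 3′ end of Neurog3 overlaps 2010107G23Rik on the opposite strand. On its 1267 exon bases shared with no other gene, 17 and 22 positions with solvent stood against 4 and 7 with MS-275, a ratio of 0.292 (95% exact interval 0.135 to 0.582, counting error only). The coding sequence held 6 and 11 positions with solvent and 1 and 0 with MS-275, a ratio of 0.0609 (95% exact interval 0.00146 to 0.389). The 3′ UTR, which holds the overlap, had 18 and 18 positions with solvent and 16 and 6 with MS-275, with a ratio of 0.633 whose interval of 0.355 to 1.11 includes 1. The 5′ UTR, with 4 and 8 positions with solvent and 1 and 6 with MS-275, overlapped between the groups in density, and its ratio of 0.604 (95% exact interval 0.202 to 1.67) has an interval that includes 1.

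Neurog1 was without a read on its exons in both solvent libraries. It lies on the minus strand of chromosome 13 from 56351866 to 56353524 (mm9, ENSMUSG00000048904.4) and has a single exon. Its value was 0 in both solvent libraries and 0.00276 and 0.00211 in the old and new MS-275 libraries. These values correspond to 5 and 7 alignments, at 5 and 6 distinct positions. Over the summed libraries the level with MS-275 was 3.80-fold a floor of 3 positions over the solvent group. This makes no allowance for counting error in the 11 MS-275 positions, so it is not a lower limit. Of the 11 positions, 5 lay in the coding sequence, 3 in the 3′ UTR and 3 in the 5′ UTR.

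Neurog2 lies on the plus strand of chromosome 3 from 127336054 to 127338549 (mm9, ENSMUSG00000027967.7). Its value was 0 and 0.00058 with solvent (old and new) and 0.00372 and 0.00338 with MS-275. The exons held 0 and 3 distinct positions with solvent and 9 and 15 with MS-275, so the groups did not overlap in either measure. The ratio of the summed positions was 8.29 (95% exact interval 2.52 to 43.0, counting error only). All 3 solvent positions lay in the 3′ UTR, while with MS-275 the coding sequence held 2 and 3.

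On the values, the log2 fold change was 0.57 for Neurog1 (SE 0.179, limma adjusted p = 0.138) and 0.69 for Neurog2 (SE 0.205, limma adjusted p = 0.118). Neither passed. With the replicate block both passed as higher, at adjusted p of 0.0466 for Neurog1 and 0.0244 for Neurog2. Under the block the limma adjusted p ranged from 0.0174 to 0.259 for Neurog1 and from 0.0155 to 0.259 for Neurog2 over the other settings of the values. Both genes lost the call there with a pseudocount of 0.02, no filter, quantile normalization or eBayes without a trend. With the block and no filter, 0 of 28250 genes passed in either direction. Both genes met the minimum of 0.001 in 2 libraries through the MS-275 libraries alone, so being tested already required them to be higher there. Under a minimum of 3 distinct positions in 2 libraries, chosen after seeing the data, Neurog1 passed without a block (limma adjusted p = 0.0302) and Neurog2 did not (limma adjusted p = 0.0708). Here too both genes were tested only through the MS-275 libraries, since at most 1 solvent library reached 3 positions.

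**Figure D3:**
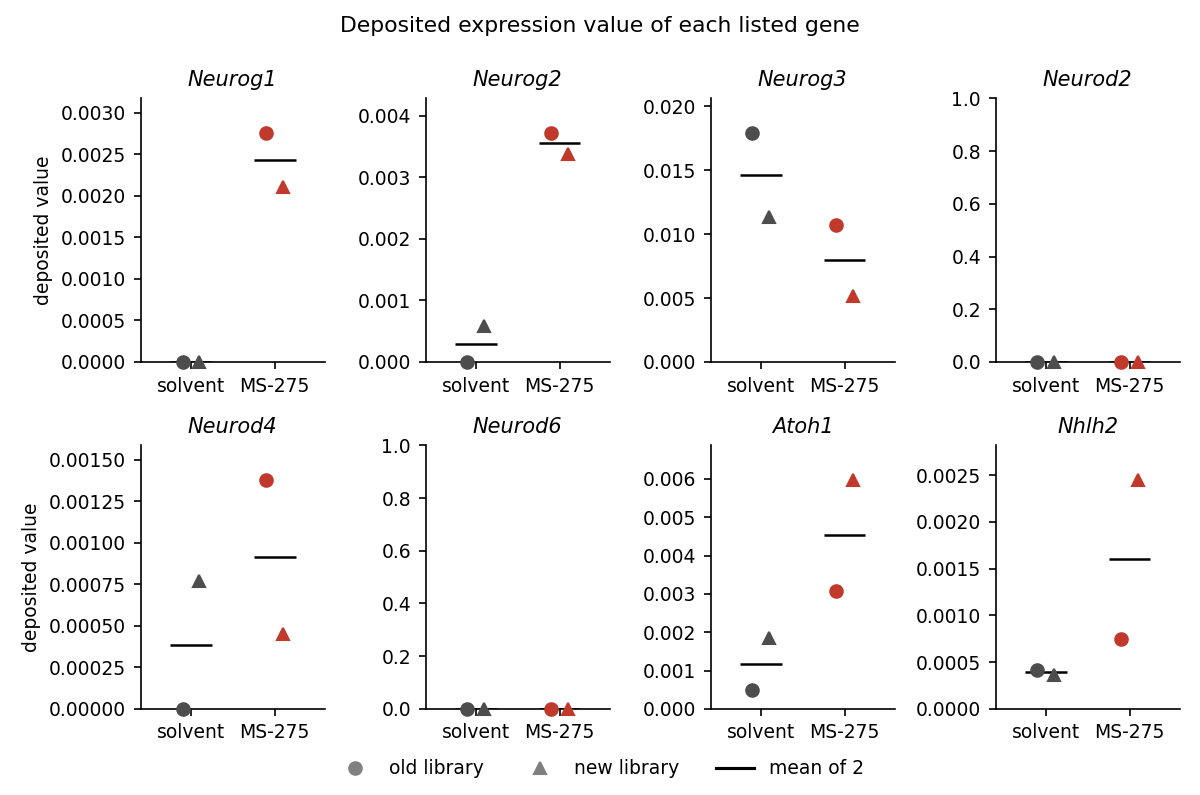
Deposited expression value (linear y axes from 0, 1 panel and scale per gene) of the 8 listed genes in the solvent and MS-275 libraries. Circles are the old and triangles the new libraries, and bars are the mean of 2. Neurog1 is at 0 in both solvent libraries, and Atoh1, Neurog2, Neurog1 and Nhlh2 have both MS-275 points above both solvent points.

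Atoh1 lies on the plus strand of chromosome 6 from 64679140 to 64681227 (mm9, ENSMUSG00000073043.4). It had values of 0.00049 and 0.00184 with solvent (old and new) and 0.00307 and 0.00598 with MS-275. All 4 values were rebuilt exactly, from 1, 9, 7 and 25 alignments. At distinct positions the counts were 1 and 8 with solvent and 7 and 17 with MS-275, so the old MS-275 library fell just below the new solvent library and the groups overlapped. Within pairs Atoh1 was higher with MS-275 in 2 of 2. The log2 fold change of the values was 0.62 (SE 0.268, limma adjusted p = 0.271), and with the replicate block the adjusted p was 0.0523. Atoh1 therefore did not pass with or without the block on the values, and it passed as higher only in fits with the block and another pseudocount or filter.

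The remaining members were at the edge of detection. Neurod4, on chromosome 10, had values of 0 and 0.00077 with solvent and 0.00138 and 0.00045 with MS-275, and 0, 3, 5 and 3 distinct positions in the same order. Nhlh2, on chromosome 3, had values of 0.00036 to 0.00042 with solvent and of 0.00075 and 0.00245 with MS-275, which do not overlap. Its exons held 1 and 2 distinct positions with solvent and 1 and 9 with MS-275. Counted by read centre, 7 positions of the MS-275 libraries lay in its intron, against 0 with solvent. At distinct positions Nhlh2 overlapped between the groups. Neurod4 had counts tied at 3 between the new libraries, while its densities, 0 and 0.0818 with solvent and 0.137 and 0.0983 with MS-275, did not overlap. Neither gene was tested under the main filters. Neurod2, on chromosome 11, and Neurod6, on chromosome 6, were listed at 0 and had 0 positions on exon and intron in all 4 libraries. A count of 0 allows a density of up to 0.0460 with solvent and 0.0477 with MS-275 for Neurod2, and 0.0671 and 0.0695 for Neurod6, with a floor of 3 positions over each group. The sequence from 1 to 10 kb on either side of each member, outside annotated exons, had a density of at most 0.107 in any library.

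The calls of the members were read against those of all genes. Of the 20336 genes tested on the values, 0.00492% passed as higher and 0.0% as lower without a block, at an adjusted p under 0.05 in limma. Of the 4 members tested on the values, 0 passed in either direction. At an unadjusted p under 0.05, 2974 genes were higher and 564 lower. With the replicate block, 21.0% of genes passed as higher and 6.46% as lower, and 2 of the 4 members passed as higher, Neurog1 and Neurog2. Of the 18116 genes tested at distinct positions, 14.2% passed as higher and 4.27% as lower without a block, and 0 of the 2 members tested passed. With the block the shares were 28.5% and 14.0%, and both members, Neurod1 and Neurog3, passed as lower. Under the lower minimum of 3 positions, 12.7% of genes passed as higher without and 27.4% with the block, and of the 6 members tested 1 did without the block (Neurog1) and 3 with it (Neurog1, Neurog2 and Atoh1). At that minimum 3.53% of genes passed as lower without and 12.1% with the block, and of the members 0 and 2 did (Neurod1 and Neurog3). Neurog1, Neurog2 and Atoh1 each had at most 1 solvent library at 3 positions and so reached the minimum through the MS-275 libraries, which makes their count no support for a rise. Over all genes tested, the median log2 fold change was 0.20 on the values and 0.12 at distinct positions. Scaling by the median ratio moved them to -0.01 and -0.02, and the members that were tested kept their direction under every scaling run. For Neurog1, Neurog2 and Atoh1 the kept direction is no support for a rise. They met the filter on the values only with the MS-275 libraries.

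The E proteins Tcf3, Tcf4 and Tcf12, the dimer partners of the proneural factors, lay between 13.1 and 19.9 in position density with solvent and between 9.20 and 18.8 with MS-275. With solvent they were above every member but Neurod1, whose range of 6.81 to 17.7 overlapped theirs, and with MS-275 they were above all 9 members. Of the 3 genes, 0 passed on the values or at distinct positions, with or without the block, and their log2 fold changes at distinct positions were -0.06 for Tcf3, -0.08 for Tcf4 and -0.30 for Tcf12 (standard errors 0.171 to 0.278). The libraries of the 2 groups overlapped for each of them.

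The inhibitors of proneural factors were tested at distinct positions for 9 of 11 genes, of which 7 passed as higher (Id1, Id2, Id3, Id4, Hey1, Hey2 and Heyl) and 1 as lower (Rest). Heyl met the filter through the MS-275 libraries alone. Their median log2 fold change was 2.00, against 0.12 over all genes. Of all genes, 14.2% passed as higher and 4.27% as lower in that fit. On the values 7 passed as higher and 1 as lower with the replicate block, and 0 without it. With the block, 21.0% of all genes passed as higher on the values and 6.46% as lower. Id1, which captures E proteins, had densities of 8.81 and 10.8 with solvent (old and new) and 38.0 and 51.6 with MS-275, which gave a log2 fold change of 2.17 (SE 0.271, limma adjusted p = 0.00415). Id3 stood at 3.65 and 13.7 with solvent and 27.5 and 41.8 with MS-275, so that both MS-275 libraries lay above both solvent libraries, as for Id1. Rest, the repressor of neuronal genes, fell from 42.2 and 45.6 with solvent to 22.5 and 23.1 with MS-275, a log2 fold change of -0.95 (SE 0.146, limma adjusted p = 0.00606). Hes1, the Notch effector of the list with the highest level, stood at 21.1 and 18.2 with solvent and at 15.7 and 24.7 with MS-275 and did not pass (limma adjusted p = 0.994). Hes3 and Hes5 were below the filter.

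**Figure D4:**
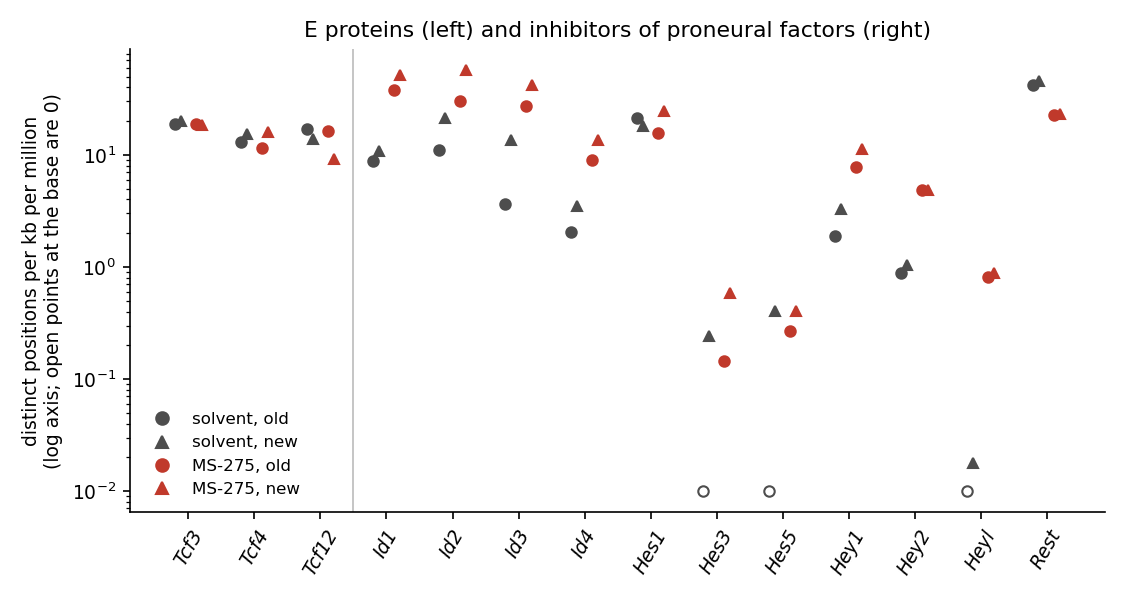
Position density (distinct alignment positions per kb of exon scaled to 1000000 per library, log y axis) of the 3 E proteins, left of the line, and 11 inhibitors, right of it. Grey is solvent and red MS-275, circles are old and triangles new libraries, and open points at the base stand for 0. The E proteins overlap between the groups, the 4 Id genes, Hey1, Hey2 and Heyl have both MS-275 points above both solvent points, and Rest has both below.

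Of the 10 other neural bHLH activators, 6 were tested at distinct positions and 2 passed as higher, Olig1 and Bhlhe23, with 0 lower. The median of the list was 2.34, against 0.12 over all genes, of which 14.2% passed as higher and 4.27% as lower. Olig1, a factor of the oligodendrocyte and motor neuron lineages, had 9 and 13 positions with solvent (old and new) and 52 and 65 with MS-275, a log2 fold change of 2.41 (SE 0.490, limma adjusted p = 0.0145). Only 1 solvent library of Olig1 reached 10 positions, so it too was tested through the MS-275 libraries. Bhlhe23 had 0 and 1 with solvent and 36 and 39 with MS-275 and met the filter through the MS-275 libraries alone. On the values 7 of 10 passed as higher with the replicate block and 0 without it, against 21.0% and 0.00492% of all genes.

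Among 20 genes known as early targets of proneural factors, 14 were tested at distinct positions, 6 passed as higher and 0 as lower, with a median log2 fold change of 1.03. Over all genes the median was 0.12, and 14.2% passed as higher and 4.27% as lower there. On the values 10 of 18 passed as higher with the block and 0 without it, against 21.0% and 0.00492% of all genes. Rnd2, a small GTPase that Neurog2 is known to induce in migrating neurons, had 91 and 135 positions with solvent (old and new) and 212 and 220 with MS-275, a log2 fold change of 1.0 (SE 0.275, limma adjusted p = 0.0406). Dll1, the Notch ligand through which proneural genes act in lateral inhibition, had 105 and 154 with solvent and 273 and 324 with MS-275 (log2 fold change 1.26, limma adjusted p = 0.0206). The others that passed were Dll4, Ebf2, Ebf3 and Myt1, which met the filter through the MS-275 libraries and would not have been tested on the solvent libraries alone. Pou4f1, the largest rise of the list on the values, did not pass at distinct positions without a block (log2 fold change 1.06, limma adjusted p = 0.110). Insm1, known as a target of Neurog3 and Neurod1 in endocrine cells, had 26 and 6 positions with solvent and 7 and 9 with MS-275 and was not tested at distinct positions. Barhl1, a target of Atoh1 in the cerebellum, had values of 0.00134 to 0.00274 over the 4 libraries.

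Markers of other cell types were measured beside these results. Of all genes tested at distinct positions, 14.2% passed as higher and 4.27% as lower without a block. With the block the shares were 28.5% and 14.0%. Of 14 neuron markers, 13 were tested at distinct positions and 5 passed as higher, namely Map2, Elavl3, Syt1, Nefl and Nefm, with 0 lower and a median of 0.53. Nefm, a neurofilament chain, had 32 and 65 positions with solvent and 382 and 657 with MS-275 (log2 fold change 3.46, limma adjusted p = 0.00530). Stmn2 and Gap43 had log2 fold changes of -0.45 and -0.44 and did not pass without a block. With it Stmn2 passed as lower (limma adjusted p = 0.00408). Dcx, a marker of migrating neurons, had 0 to 3 positions in each library. All 10 stem cell markers were tested and 1 passed as lower, Utf1, with a median of -0.28. With the replicate block 5 passed as lower (Pou5f1, Esrrb, Klf4, Tdgf1 and Utf1), and 4 did without it under median-ratio scaling. Their summed value was 5.90 and 24.8 with solvent (old and new) and 4.97 and 14.7 with MS-275, and 0 of the 10 were at 0 in any library. The old and new sums are not on a like footing, since only the new libraries held repeated positions. Nanog had solvent values of 0.772 and 3.08 (old and new) but 1616 and 1613 distinct positions. Dppa5a had 0.293 and 5.51 but 204 and 240 positions. The cause of the gap in the values was not tested. Of 12 markers of feeder fibroblasts 11 were tested and 4 passed as higher, Col1a1, Thy1, Pdgfra and Pdgfrb, with a median of 0.85. Col3a1 and Dcn had log2 fold changes of -1.19 and -1.01 and did not pass without a block. With the replicate block 7 passed as higher and 1, Col3a1, as lower (limma adjusted p = 0.0227). The summed feeder value was 0.333 and 0.294 with solvent and 0.655 and 0.676 with MS-275, and Fap was at 0 in 3 libraries. The part of the feeders in the members' levels was not tested.

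**Figure D5:**
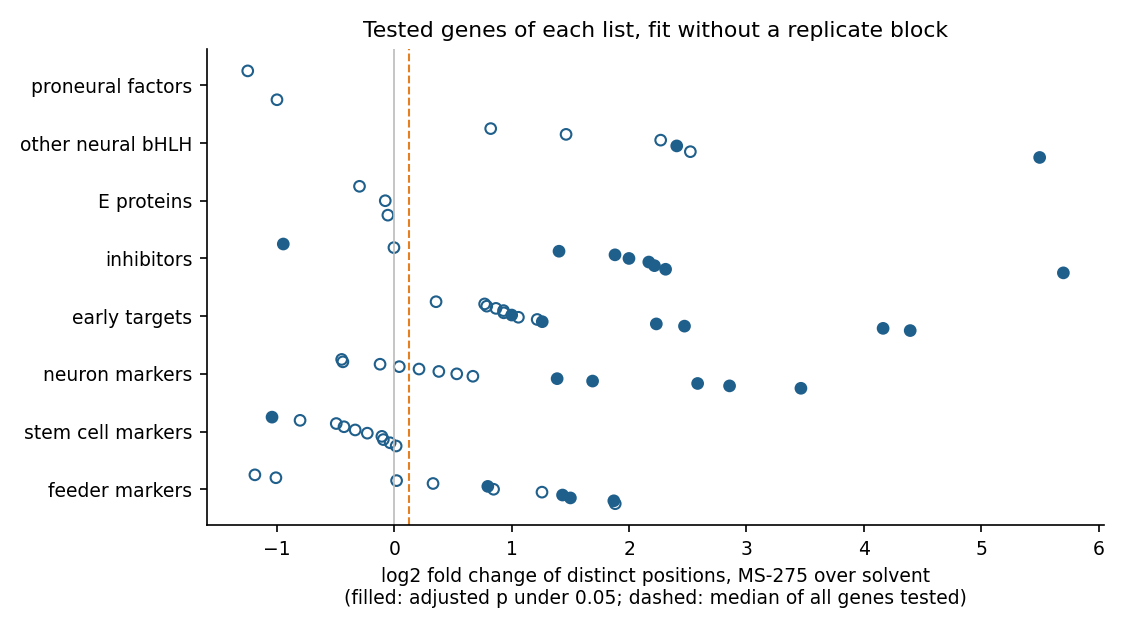
Log2 fold change of distinct positions (MS-275 over solvent, x axis, fit without a block) of the tested genes of 8 lists, 1 point per gene. Filled points passed an adjusted p of 0.05 and the dashed line is the median of all genes tested, 0.12. The 2 proneural factors tested lie left of 0 unfilled, 7 inhibitors lie right of it filled and Rest left of it filled.

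The genes nearest in profile to the mean of the 4 members tested on the values were Hoxd12, A630076J17Rik, Gm1587, C730027H18Rik and LOC100502733. Likeness was the Euclidean distance of log2(value + 0.005), centred on each gene's mean, over 4 libraries, and it ranged from 0.0128 to 0.0283. The first 4 of these genes were listed at 0 in both solvent libraries and between 0.00101 and 0.00148 with MS-275. This is a profile of low values, and it averages over Neurog3, which differed in the other direction.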

How the data were processed

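RNA was measured in 4 libraries of TBV2 cells, grouped by their titles. The values are a signal per gene: the authors mapped reads to mm9 and made the deposited signal with Genomatix (aligner and repeat handling not given in the sources used here). Other files deposited by the authors were the alignments, each 35 bases long, shorter value tables and tables of their own MS-275 to solvent ratios, and the last 2 kinds were not used. Whether the vehicle was DMSO or ethanol differs between the sources, so the text says solvent.

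Values were tested with limma 3.58.1 (R 4.3.3; lmFit, eBayes with a trend, two-sided, Benjamini-Hochberg over all genes) on log2(value + 0.005) for genes at 0.001 or more in at least 2 libraries. Exons of GENCODE M1 genes on mm9 were counted with Python 3.11.15, numpy 2.4.6 and pandas 2.3.3 at distinct positions, and tested with limma-voom where at least 10 occurred in at least 2 libraries. Repeated reads may not be independent molecules. On genes with many reads they need not be copies, and distinct positions can then understate a change. In the new libraries Pou5f1 had 7780 alignments with solvent and 2074 with MS-275, at 1168 and 643 positions. Id1 had 216 and 2303, at 137 and 546 positions. Intervals (scipy 1.17.1, Clopper-Pearson) and floors cover counting error only. Figures used matplotlib 3.10.9. The steps were tested on simulated data.

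The pairs of the replicate block come from the authors' labels old and new. Once each gene's group mean was subtracted, Pearson's r between the libraries of a pair was 0.764 on the values (20336 genes) and 0.620 at distinct positions (18116 genes), as a description across genes.

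The members and the 9 other lists (116 genes; 115 matched by symbol and 1 by Entrez identifier) were chosen with earlier results of these data known. Named genes are the members, the 2 largest rises and falls of each list on the values and the 5 nearest profiles. The other genes named were chosen after their values were seen. Promoters are from RefSeq. Alternatives were other pseudocounts, filters, scalings and measures, eBayes without a trend, the block and each library left out. Columns of other samples numbered 0. Values of some list genes are not reported here.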

Additional observations from a re-analysis of the deposited data

How the results depend on the processing

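Without a replicate block, 0 members passed as higher and 0 as lower on the values under both other pseudocounts, both other filters, both scalings and eBayes without a trend. Over all genes 0 passed in those fits either, except with a mean of at least 0.01, where 466 were higher and 65 lower of 14740. With the replicate block, the number higher was 2, or 3 with a pseudocount of 0.001 and 2 with median-ratio scaling. Of all 20336 genes, 4277, 4216 and 3344 were higher in these fits. The number of members was 0 with the block and a pseudocount of 0.02, quantile normalization, eBayes without a trend or no filter. It was also 0 where a mean of at least 0.01 was required, which left 1 member tested. With the block and no filter, 0 of 28250 genes passed in either direction, so that fit says nothing of the members. A pseudocount of 0.02 passed 3790 genes as higher, quantile normalization 2936, eBayes without a trend 3936 and the mean filter 2751. Under the block, 1 member (Neurog3) was lower with quantile normalization and 1 with median-ratio scaling, as were 2961 and 2806 of the 20336 genes. At distinct positions 2 were lower with the replicate block, 2 with the block and median-ratio scaling, and 1 with the block when all alignments were counted. Over all genes, 2534 and 3830 of 18116 were lower with the block and with block and scaling, and 1931 of 18463 with all alignments. At a minimum of 3 positions 1 was higher without and 3 with the block, and 2 were lower with it. Without 1 library at a time, the number higher was 0 to 0 on both measures, and the number lower 0 to 0 on the values and 0 to 1 at distinct positions. In those fits a lone library is assumed to vary like the other group.

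Neurog1, Neurog2, Neurog3, Neurod1 and Atoh1 were followed through these settings and kept their direction wherever they were tested. The other members were not followed. Wherever a filter applied, Neurog1, Neurog2 and Atoh1 met it only with the MS-275 libraries. Their kept direction is therefore no support for a rise. The log2 fold change ran from -1.14 to -0.30 for Neurog3, from -1.96 to -0.58 for Neurod1, from 0.17 to 3.63 for Neurog1, from 0.22 to 3.20 for Neurog2 and from 0.21 to 1.65 for Atoh1. Neurog1, Neurog2 and Atoh1 have no value under a mean of at least 0.01 or at least 10 positions, where they were not tested, and Neurog1 and Neurog2 have none on the values without either MS-275 library. Scaling changed the split over all genes: with the block on the values 4277 were higher and 1314 lower, against 3344 and 2806 with median-ratio scaling, and at distinct positions 2571 and 773 without a block against 2071 and 1261. Depth limits Neurog1, Neurog2, Neurod4, Nhlh2 and Atoh1, each with at most 25 alignments in a library. The alternatives at distinct positions other than the filter of 10 were chosen after seeing the data, and the cause of these changes was not tested.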

Other observations

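Neurog3 and Neurod1 are best known in the endocrine pancreas, so 14 genes of that lineage were also read. At distinct positions 5 of them were tested and all 5 passed as higher with MS-275 without a block (among them Pdx1, Isl1, Mafa and Chga), while Neurog3 and Neurod1 themselves had fewer positions. Mafa, which activates the insulin gene in beta cells, had 7 and 7 positions with solvent (old and new) and 78 and 43 with MS-275 (log2 fold change 3.04, limma adjusted p = 0.00888). Pdx1, Isl1 and Mafa met the filter through the MS-275 libraries alone. Hormone genes were near absent: Ins1, Gcg and Iapp had 0 positions in all 4 libraries, as did the early regulator Pax4, and Ins2 and Sst had 0 to 2. The median of the 5 was 3.55, against 0.12 over all genes, of which 14.2% passed as higher in that fit.

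bHLH factors of other lineages were also measured. Of 22 genes, 10 were tested at distinct positions, 3 passed as higher (Tal2, Scx and Figla) and 1 as lower (Msc). Of all genes tested there, 14.2% passed as higher and 4.27% as lower without a block. Scx and Figla met the filter through the MS-275 libraries, since at most 1 solvent library of each reached 10 positions. Msc, known as a repressor bHLH factor of muscle precursors and lymphocytes, had 67 and 102 positions with solvent (old and new) and 13 and 4 with MS-275, a log2 fold change of -3.34 (SE 0.566, limma adjusted p = 0.00786). Figla, an oocyte factor, had 5 and 14 with solvent and 44 and 39 with MS-275 (log2 fold change 2.26, limma adjusted p = 0.0252). Myod1, the myogenic factor, had 0 positions in both solvent libraries and 6 and 13 with MS-275 and was not tested at distinct positions.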
